A study of Mus musculus with 38 samples.

Results

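The comparison is between cells labelled hair germ and cells labelled bulge stem cells (bulge SCs) from the dorsal skin of nevus mice at postnatal day 56 (P56), with 2 bulk RNA sequencing libraries of each. These 4 libraries were chosen by their labels from the 38 libraries (19 groups) of the series. Nevus mice carried *Tyr-Nras* Q61K, an activated *Nras* expressed constitutively from the tyrosinase promoter, which is active in melanocytes and not in the hair follicle (HF) epithelium that was sorted, so the epithelial cells were profiled as neighbours of the mutant melanocytes. The matched wild type (WT) P56 libraries, 2 of hair germ and 2 of bulge, were used as the control pair. Bulge SCs of both genotypes also carried the reporter *K14-H2B-GFP* and were gated as GFP+, CD34+ and low in P-cadherin, whereas for the libraries labelled hair germ the sources give no gate, beyond stainings that show this compartment as CD34- and high in P-cadherin. The methods describe biological replicates for bulk sequencing in general, and the labels do not tie the 2 libraries of a group to separate animals, so their spread may be technical.

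The bulge is the permanent part of the resting (telogen) HF and holds slow-cycling SCs that keep CD34, keratin 15 and the transcription factors SOX9, LHX2, NFATC1 and TCF7L1. Below it lies the hair germ, a small group of short-lived progenitors that are classically low in CD34 and high in P-cadherin and that divide first when a new growth phase (anagen) begins, driven by WNT and restrained by BMP. During anagen the progeny form the inner root sheath and hair shaft. At P56 the dorsal HFs of WT mice rest, whereas the paper describes nevus skin as a mix of resting HFs and many ectopic anagen HFs.

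Values are FPKM (read fragments scaled to transcript length and library size), rescaled so that the typical gene has the same level in every library. Hair germ and bulge values come from tables that the authors made separately, so a difference between cell types and a difference between tables cannot be told apart, no p-value is given for it and only large differences are described. A gene was called far higher (or far lower) in nevus hair germ when the mean log2 levels differed by 3 or more (8-fold) and each hair germ library lay at least 4-fold from each bulge library. Of 14963 protein-coding genes in both tables, 11827 reached 1 FPKM in at least 2 of the 4 nevus libraries. In total 318 (2.69%) were far higher and 466 (3.94%) far lower in nevus hair germ. The SD of the log2 difference between libraries of 1 group was 0.360 for nevus hair germ and 0.622 for nevus bulge, against 1.5 between the group means. Between cell types 33.8% of genes differed at least 2-fold, and between the libraries of a group 2.17% and 7.59% did. In bulk libraries fewer cells of a type and less RNA per cell cannot be told apart.

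The bulge libraries carried bulge markers, while the nevus hair germ libraries were low in several of the genes that mark hair germ. *Cd34*, the cell surface sialomucin used in the bulge gate, was at 0.484 and 0.534 FPKM in nevus hair germ and at 49.3 and 108 in nevus bulge, which restates the sort. *Cdh3*, encoding P-cadherin, was not enriched in hair germ, with 36 and 35.4 in nevus hair germ against 53.2 and 109 in nevus bulge, and 16.5 and 16 against 31.8 and 29.3 in WT. Every hair germ library thus lay below every bulge library of its genotype for *Cdh3*, although the bulge gate took cells low in P-cadherin. *Lef1*, a WNT-responsive transcription factor of the hair germ and matrix, was at 0.405 and 0.189 in nevus hair germ and 8.3 and 3.64 in nevus bulge, whereas WT hair germ was at 10 and 9.65 and WT bulge at 3.47 and 1.49. *Shh*, the hair germ ligand of early anagen, was listed in the bulge table alone and not compared. Of 16 tested hair germ markers 5 were far lower in nevus hair germ (*Lef1*, *Msx1*, *Hoxc13*, *Trps1* and *Dlx3*) and 1, *Gata6*, was far higher. *Gata6* also marks the upper follicle and sebaceous duct. Between the WT groups 1 of the 16 was far higher in hair germ and 1 far lower (median -0.35, and -0.74 in nevus). *Wnt10a* (139.6 and 142 against 16.4 and 19.6) and *Bmp2* (17.2 and 16.8 against 3.55 and 3.49), both ligands made by hair germ, lay higher in nevus hair germ but under 8-fold. *Krt14*, the basal keratin whose promoter drove the reporter, was high in all, at 15942 and 16859 in nevus hair germ and 9637 and 9836 in nevus bulge. *Nras*, the gene of the transgene, was at 68.2 and 79 in nevus and 34.1 and 34.9 in WT hair germ and at 43.4 and 40.6 in nevus and 27.6 and 27.2 in WT bulge, values that do not separate the transgene from the mouse gene. The cells are therefore called by their label, the libraries labelled hair germ, with no other name given.

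**Figure D1:**
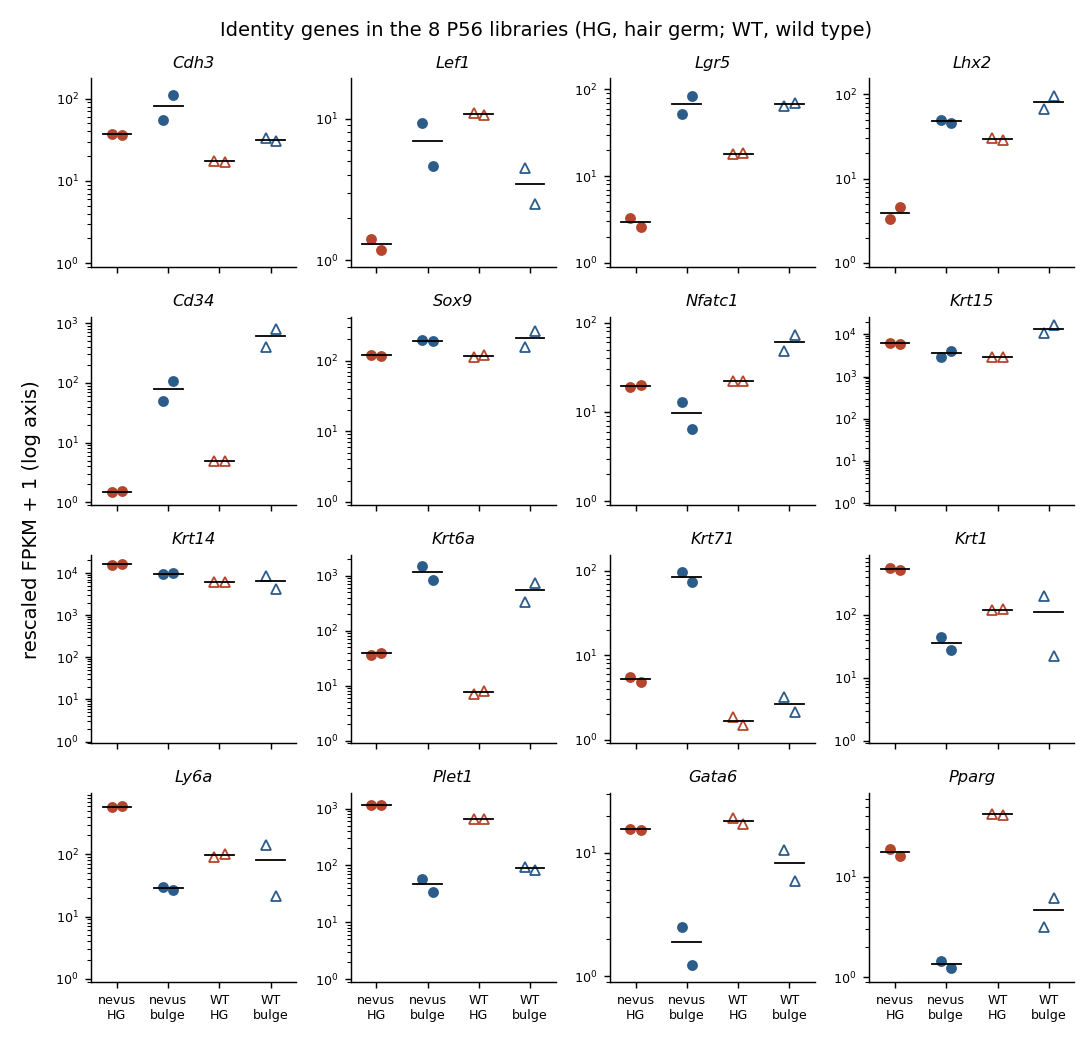
Levels of 16 genes used to check the labels in the 8 P56 libraries, as rescaled FPKM + 1 on a log axis, with a point per library and a bar at the group mean. *Cd34*, *Lgr5* and *Lhx2* lie lower in nevus hair germ than in nevus bulge, *Cdh3* does not lie higher, and *Krt14* is high in every library.

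Genes far higher in nevus hair germ were led by *Ch25h*, *Gm10020*, *Ifi202b*, *Serpinb2* and *Fosl1*. The highest difference, among genes above the floor in every library, was that of *Ch25h*, cholesterol 25-hydroxylase (ENSMUSG00000050370.4, chromosome 19, 34473778 to 34475164 on GRCm38). It stood at 230.4 and 235 FPKM in hair germ and 4.04 and 0.768 in bulge, a log2 difference of 7.05 ± 1.2 (SE from 2 libraries in each group, as for all such differences). *Serpinb2*, plasminogen activator inhibitor 2 (ENSMUSG00000062345.10, chromosome 1, 107511423 to 107535478), was at 1919.5 and 1977 against 44.2 and 18.8, a difference of 6.08 ± 0.62. *Fosl1* (ENSMUSG00000024912.5, chromosome 19, 5447547 to 5455946), which encodes the AP-1 subunit FRA1, was at 1262 and 1243 against 34 and 11.7 (5.97 ± 0.77). For these genes the hair germ libraries lay close together and the bulge libraries further apart. *Epgn*, epigen, a ligand of the EGF receptor, was at 481 and 483 against 12.9 and 7.05 (5.66 ± 0.44). *Ifi202b*, an interferon-inducible DNA-binding protein, was at 182 and 184 against 3.5 and 1.88 (6.16 ± 0.45). *Igfbp2*, a binding protein of insulin-like growth factors, was at 103 and 95.3 against 2.42 and 1.49 (5.7 ± 0.35). *Pparg*, the nuclear receptor that drives sebocyte differentiation, was at 17.9 and 15.1 against 0.454 and 0.24 (5.64 ± 0.48). *Fa2h*, fatty acid 2-hydroxylase, was at 15.5 and 15.4 against 0.14 and 0.576, *Aadac*, a lipid deacetylase, at 97.5 and 102 against 4.38 and 0.643, and *Acoxl*, an acyl-CoA oxidase-like gene, at 9.25 and 9.89 against 0.231 and 0.154. The vasopressin receptor gene *Avpr1a* was at 26.9 and 26.2 against 0.57 and 0.374. *Gm10020* (677 and 674 against 5.2 and 5.54) is a processed pseudogene in the GRCm38 annotation and can share reads with its parent gene, so its level is uncertain.

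In 20 of the 318 genes both bulge libraries were at the lowest level the bulge table lists, 0.1 FPKM before rescaling, so that no fold is given. The highest of these in hair germ were *E030030I06Rik* at 14 and 16.8, *Hamp*, the iron-regulating hormone hepcidin, at 13.8 and 15.3, and *Akr1c19*, an aldo-keto reductase, at 10.5 and 9.64. *Hist1h2ao* (3.71 and 5.66), *Gm5741* (5.04 and 3.99) and *Gm20431* (6.54 and 1.34) followed, the last with its libraries far apart. *Hist1h2ao* has near-identical histone copies and its level is uncertain.

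The promoters of *Igfbp2*, a leading gene, and *Krtdap*, an epidermis marker, are shown because the share of promoters with the AP-1 motif TGAGTCA was higher among far higher genes than among all genes. The windows run from 250 bases before to 50 bases after the start site (RefSeq, GRCm38.p6), 5′ to 3′ on the plus strand, at chr1:72825137-72825436 and chr7:30787655-30787954, with the motif in capitals.
Igfbp2: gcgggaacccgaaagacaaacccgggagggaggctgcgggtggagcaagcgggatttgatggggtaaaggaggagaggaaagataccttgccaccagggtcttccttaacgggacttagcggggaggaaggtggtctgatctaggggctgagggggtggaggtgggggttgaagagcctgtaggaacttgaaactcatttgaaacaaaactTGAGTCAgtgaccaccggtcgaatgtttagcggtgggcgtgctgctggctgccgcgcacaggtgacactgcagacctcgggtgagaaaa
Krtdap: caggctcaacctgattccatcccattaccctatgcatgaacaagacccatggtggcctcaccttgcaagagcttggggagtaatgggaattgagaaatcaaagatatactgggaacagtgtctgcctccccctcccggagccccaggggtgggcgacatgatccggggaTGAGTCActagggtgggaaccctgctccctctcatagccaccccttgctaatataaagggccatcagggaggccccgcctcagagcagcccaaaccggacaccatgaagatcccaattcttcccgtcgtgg
The motif was searched as TGAGTCA and its reverse complement TGACTCA, and was chosen after the values were seen. It was found in 10.5% of the 306 windows of the far higher genes (235 of 318 genes had a window), in 3.69% of the 406 windows of the far lower genes (311 of 466 genes) and in 3.88% of the 11507 windows of all genes compared. TGAATCA and its reverse complement TGATTCA, with A or T at the centre, were in 2.61%, 0.985% and 1.33% of these windows. CACGTG, the E-box bound by the clock factors, searched for contrast, was in 7.84%, 6.4% and 9.92%. Among the 31 far higher genes with the AP-1 motif are *Hamp*, *Igfbp2*, *Il1a*, *Cldn4*, *Krtdap*, *Chit1*, *Ivl* and *Il6*. Of the FOS and JUN family genes of AP-1, besides *Fosl1*, *Fosb* (178 and 170.3 against 65.8 and 54.9), *Fosl2* (21.6 and 22.8 against 14.7 and 8.14), *Jun* (1577 and 1598 against 789 and 894), *Junb* (2417 and 2457 against 855 and 759) and *Jund* (254 and 208 against 69.7 and 51.8) lay higher in both hair germ libraries, under 8-fold, and *Fos* lay lower (2968 and 2983 against 3143 and 3456). The mean difference of *Jun* turns negative when libraries are rescaled to ribosomal protein genes. A match of letters describes the window and not binding.

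Among genes with both hair germ libraries above the floor, those far lower in nevus hair germ were led by *Slc7a8*, *Fndc1*, *Fgf5* and *Tnc*, which were nearly silent there. With a hair germ library under the floor, *Fads2*, a fatty acid desaturase (0.0338 and 0.556 against 83.6 and 75.4), and *Spp1*, described with its receptors, had differences of -8.31 and -7.8. *Slc7a8* (ENSMUSG00000022180.6, chromosome 14, 54722209 to 54781946), the amino acid transporter LAT2, was at 0.315 and 0.423 FPKM in hair germ against 144 and 261 in bulge, a log2 difference of -9.05 ± 0.48. *Fgf5* (ENSMUSG00000029337.2, chromosome 5, 98254184 to 98277030), the growth factor that ends anagen, was at 0.394 and 0.134 against 40.1 and 37.9 (-7.41 ± 0.78). *Tnc*, tenascin C, a matrix protein of the bulge niche, was at 0.473 and 0.567 against 58.9 and 106 (-7.26 ± 0.45). Each was under 1 FPKM in both hair germ libraries and well expressed in both bulge libraries. *Fndc1*, a fibronectin domain protein, was at 0.248 and 0.2 against 40.3 and 52.4 (-7.69 ± 0.24). *Ror2*, the receptor for WNT5A, was at 0.124 and 0.178 against 12.2 and 13.1 (-6.42 ± 0.27). The actin-binding protein drebrin, *Dbn1*, was at 0.461 and 0.234 against 32.9 and 51 (-6.96 ± 0.58). Of the other leading genes, the gamma-glutamyltransferase *Ggt1* was at 0.788 and 0.189 against 37.6 and 69.1, and *Pdzrn3*, a ubiquitin ligase, at 0.675 and 0.734 against 98.4 and 77.4. *Scrg1* (0.619 and 0.634 against 50.3 and 117), the glycogen regulator *Ppp1r3b* (0.169 and 0.378 against 22.7 and 35) and the secreted *Wfdc18* (1.47 and 0.668 against 106 and 67.8) complete the leading genes.

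Both hair germ libraries were at or under the floor for 95 of the 466 far lower genes. *Mmp9*, the matrix metalloproteinase gelatinase B, was listed at 0 in both, against 14.1 and 12.9 in nevus bulge. *Foxe1*, a hedgehog-responsive forkhead factor of the follicle, was at 0.101 and 0 against 10.1 and 10.7, and *Krt19*, a keratin of bulge cells, at 0 and 0.0779 against 8.71 and 11.5. In nevus bulge *Fam198b* was at 12.2 and 15.8 and *Pcp4* at 10.9 and 8.38. *Hist1h2al*, listed at 0 in hair germ and at 55.1 and 36.4 in bulge, is a processed pseudogene in the annotation with histone copies elsewhere, and its level is uncertain.

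**Figure D2:**
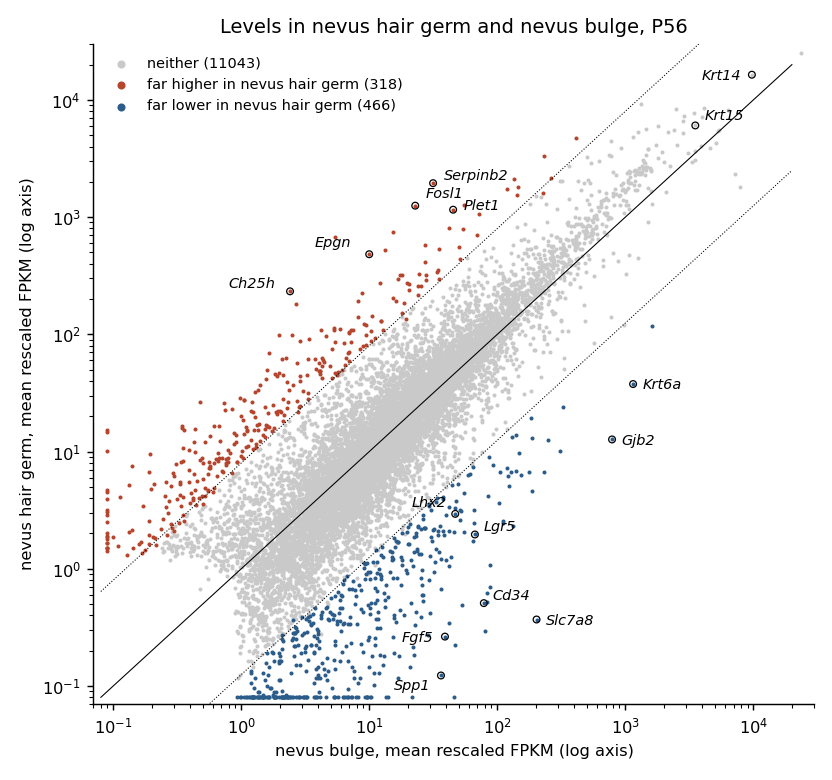
Mean rescaled FPKM of 11827 genes in nevus bulge (x axis) and nevus hair germ (y axis), both on log axes, with values under 0.08 drawn at 0.08 and dotted lines at an 8-fold difference. The 318 far higher and 466 far lower genes are coloured and the others are grey.

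**Figure D3:**
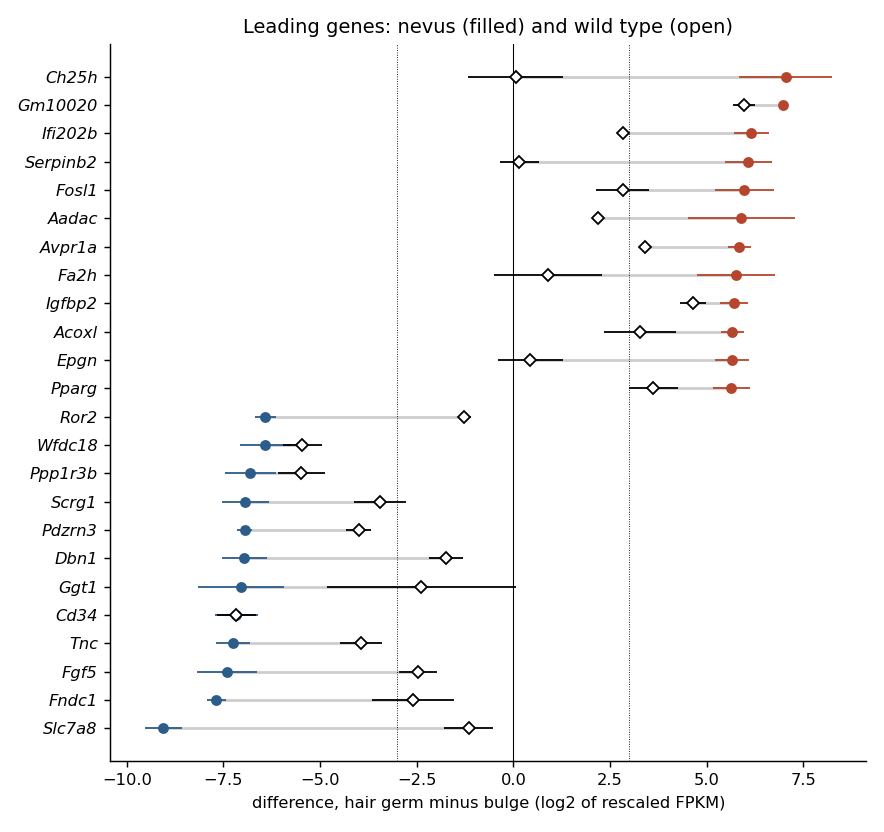
Log2 difference of hair germ minus bulge for 24 leading genes in nevus (filled) and WT (open) libraries, with SE bars from 2 libraries in each group and dotted lines at 3 in both directions. *Cd34* has like values in both genotypes (-7.16 and -7.17), whereas *Slc7a8* (-9.05 and -1.16) and *Ch25h* (7.05 and 0.06) do not.

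Markers of epidermis and of the upper follicle were the lists most often far higher. Of 11 tested epidermis and infundibulum markers 7 were far higher and none far lower (median log2 difference 3.60, against -0.02 over all genes compared). *Krtdap*, keratinocyte differentiation-associated protein, was at 3408 and 3269 in nevus hair germ against 311 and 155 in nevus bulge. The suprabasal keratins *Krt1* (555 and 521 against 42.9 and 26.9) and *Krt77* (327 and 310.1 against 21.5 and 14.2) and the surface antigen *Ly6a*, SCA-1 (565 and 593 against 28.9 and 25.8), did the same. *Lor*, the cornified envelope gene loricrin, was low everywhere, at 2.23 and 1.24 against 2.35 and 1.5. Summed over the list, levels were 6384 and 6034 in nevus hair germ, 1023 and 712 in nevus bulge, 1459 and 1429.8 in WT hair germ and 2108 and 919 in WT bulge. Nevus hair germ thus lay above every other group, and the 2 WT groups overlapped. Of 12 isthmus and sebaceous markers 7 were far higher (median 3.82). *Plet1*, a surface protein of the isthmus, was at 1156 and 1157 against 57.6 and 32.8, and *Cidea*, a lipid droplet protein of sebocytes, at 42.7 and 48.4 against 2.03 and 1.62. *Lrig1*, the SC marker of the isthmus, did not follow them, at 32.8 and 33.6 against 34.9 and 50.8. The summed level of this list was 2801 and 2816 in nevus hair germ, 3629 and 3762 in WT hair germ, 1237 and 650.3 in nevus bulge and 771 and 764 in WT bulge, so hair germ lay above bulge in both genotypes. The part of such cells in the other differences was not tested.

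Bulge markers were split. Of 25 tested, 8 were far lower in nevus hair germ and none far higher (median -1.84, and -1.67 in WT). Besides *Cd34* these were the transcription factors *Lhx2* (2.3 and 3.58 against 48.6 and 45.1), *Tbx1* (2.61 and 2.47 against 78.6 and 141) and *Tcf7l1* (1.05 and 0.846 against 8.22 and 12), the WNT coreceptor *Lgr5* (2.33 and 1.59 against 51.3 and 82.3), and *Col18a1*, *Igfbp5* and *Ltbp2*. Other bulge markers were expressed in both. *Krt15* was at 6159 and 5949 against 2958 and 4079.8, *Sox9* at 118 and 116 against 194 and 187, and *Nfatc1*, which maintains quiescence, at 18 and 19.1 against 11.9 and 5.49. *Col17a1*, the hemidesmosome collagen, was at 361 and 364 against 128 and 250.5, and for *Krt15*, *Nfatc1* and *Col17a1* both hair germ libraries lay above both bulge libraries, though the mean difference of *Krt15* turns negative when libraries are rescaled to ribosomal protein genes. Among 9 quiescence genes, a list that was itself chosen on these bulge libraries, 3 were far lower in nevus hair germ still, while 5 lay above 0 and the median was 0.68. *Fgf18*, a ligand that holds HFs in telogen, was at 0.259 and 0.134 against 5.39 and 2.03, the BMP antagonist *Grem1* at 0.248 and 0.289 against 2.29 and 5.08, and *Ctgf*, a matricellular protein, at 0.495 and 0.701 against 15.6 and 35.8.

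Markers of the inner bulge and companion layer differed in direction. *Krt75*, the companion layer keratin, was at 0.675 and 0.668 against 42.3 and 30.4, and *Krt6a* at 36 and 39.3 against 1480.3 and 818. In contrast, *Chit1*, a chitinase, was at 138 and 146 against 15.1 and 5.91 and *Krt80* at 157 and 145 against 25.1 and 11.2. Of 8 tested members 2 were thus far higher and 2 far lower.

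Genes of follicle differentiation were lower in the libraries labelled hair germ. Of 9 tested inner root sheath genes 6 were far lower and none far higher (median -3.26, and -0.85 in WT). The inner root sheath keratins *Krt71* (4.51 and 3.87 against 95.3 and 73), *Krt27* (1.65 and 2.49 against 20.4 and 19.1) and *Krt73* (0.698 and 0.679 against 10.8 and 11.2) and the deiminase *Padi3* (listed at 0 against 3.41 and 3) were among them. *Gata3*, the factor needed for inner root sheath fate, was at 150.2 and 148 against 88.2 and 93.5. Of 10 tested hair shaft genes 4 were far lower, including the shaft keratins *Krt35* (1.52 and 1.76 against 20.4 and 20) and *Krt83* (0.315 and 0.189 against 2.11 and 2.05) and the shaft regulator *Hoxc13* (0.653 and 0.545 against 27.6 and 25.2). Keratin genes of 1 family share sequence, so some reads may be split between them.

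The medians of the WNT ligand and receptor lists lay on opposite sides of 0, with members of each list on both sides. Of the ligands 10 lay above 0 and 4 below, and of the receptors 4 above and 13 below. After rescaling to ribosomal protein genes the ligand median was 0.61. Of 14 tested ligands and R-spondins 4 were far higher in nevus hair germ and 2 far lower (median 1.56, and -0.02 in WT). *Wnt3*, a ligand of the canonical pathway, was at 57.2 and 57.1 against 5.23 and 2.8, *Wnt16* at 27.1 and 27.8 against 0.686 and 1.41 and *Wnt3a* at 4.89 and 5.71 against 0.397 and 0.269. *Rspo3*, which amplifies WNT signals through LGR receptors, was at 3.75 and 3.17 against 0.545 and 0.134. *Wnt9a* (0.18 and 0.0668 against 3.4 and 5.64) and *Rspo1* (0.158 and 0.0668 against 1.52 and 2.43) were far lower. Of 17 tested receptors 5 were far lower and none far higher (median -1.35, and -0.87 in WT). Besides *Ror2* and *Lgr5* these were the frizzled receptors *Fzd1* (7.5 and 7.23 against 69.6 and 59.9), *Fzd2* (1.01 and 0.857 against 9.19 and 20.1) and *Fzd4* (0.315 and 0.356 against 5.9 and 8.13). *Lgr6*, the isthmus paralogue of *Lgr5*, was at 34.6 and 37.5 against 6.91 and 4.42. Among 10 antagonists the secreted *Sfrp1* was far lower (7.11 and 6.24 against 98.5 and 256) and *Sostdc1*, which binds WNT coreceptors and BMPs, was at 294 and 273 against 130.1 and 111. Among 8 factors and targets *Lef1* and *Tcf7l1* were far lower and *Myc*, a growth regulator, far higher (562 and 541 against 66.5 and 33.9). *Axin2*, the usual WNT target, was low in all 4 libraries, at 2.38 and 2.07 against 1.23 and 0.643.

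Some hedgehog targets were low in nevus hair germ. Of 6 tested factors and targets 5 lay below 0, 2 of them far lower, and 1 lay above 0 (median -2.16). Their summed level was 780 and 698 against 780 and 430 in nevus bulge. Of 15 tested genes of the pathway 4 were far lower and none far higher (median -0.89). *Gli1*, the transcriptional readout of hedgehog, was at 0.248 and 0.211 against 8.95 and 8.35, and the receptor and target *Ptch1* at 0.664 and 0.656 against 8.69 and 6.88. *Foxe1*, a forkhead transcription factor, was also far lower. *Smo*, the signal transducer, was at 16.1 and 17.6 against 27.9 and 25.

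The BMP pathway had a median of 0.01 over 26 tested genes, with 1 far higher and 4 far lower. *Bmp4*, a ligand that holds bulge SCs quiescent, was at 24.1 and 24.2 against 3.51 and 2.13. *Gdf10*, a divergent ligand, was listed at 0 against 2.84 and 13.4, with the bulge pair far apart. *Fstl1*, a secreted antagonist, was at 1.62 and 1.81 against 57.1 and 72, and *Id4*, an inhibitor of DNA binding, at 6 and 7.47 against 105 and 150.5. Its paralogues *Id1* (354 and 316 against 303 and 232) and *Id3* (849.9 and 841 against 447 and 302), the direct BMP targets, were abundant in both.

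Of 18 TGFβ genes 3 were far lower (*Inhbb*, *Ltbp2* and *Ctgf*), with the activin subunit *Inhbb* at 2.36 and 2.09 against 16.4 and 36.8. Of 16 FGF genes 2 were far higher and 3 far lower. *Fgfbp1*, which releases FGFs from the matrix, was at 709 and 689 against 69.5 and 68.4, and *Fgf13*, an intracellular FGF, at 5.79 and 5.33 against 0.801 and 0.096. *Spry4*, a feedback inhibitor of FGF signalling, was far lower at 0.247 and 0.234 against 1.79 and 2.45. Of 11 Notch genes only the target *Heyl* passed (listed at 0 against 1.82 and 1.45). Of 11 genes of EDAR and NF-κB 2 were far higher, the TNF receptors *Tnfrsf19*, TROY (47.6 and 51.3 against 8.04 and 4.19), and *Eda2r* (3.78 and 5.01 against 0.43 and 0.374), and the inhibitor *Nfkbia* was at 2034 and 2043 against 393 and 243.

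Osteopontin itself separated the populations and its receptors did not. *Spp1*, encoding the secreted ligand osteopontin (ENSMUSG00000029304.14, chromosome 5, 104435118 to 104441050), was at 0.0788 and 0.167 in nevus hair germ against 55.9 and 16.6 in nevus bulge, a log2 difference of -7.8 ± 0.92. In WT it was under 1 FPKM in all 4 libraries, at 0.462 and 0.516 in hair germ and 0.893 and 0.0878 in bulge. Of 6 tested receptors none passed in either direction. *Cd44*, its hyaluronan-binding receptor, was at 70.1 and 73.6 against 83.8 and 88.9, and the integrin *Itgb1* at 74.2 and 76.4 against 50.5 and 80.7.

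Among 29 basement membrane and adhesion genes 4 were far lower and 1 far higher. Type IV collagen, the scaffold of the basement membrane, was lower in hair germ, with *Col4a1* at 3.06 and 3.47 against 32.7 and 60.1 and *Col4a2* at 1.78 and 2.09 against 22.6 and 45.6. *Lamb1*, a laminin chain, was at 2.34 and 1.88 against 31.1 and 53.2 and the perlecan gene *Hspg2* at 0.754 and 1.66 against 9.93 and 20.8. The laminin chain *Lama4* was the member that was far higher (5.59 and 7.59 against 0.306 and 0.278). Laminin and hemidesmosome genes of basal keratinocytes lay under 8-fold, with *Lamb3* at 131 and 142 against 52.4 and 55.4 and *Itga6* at 104 and 105 against 35.4 and 53.7.

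Fibroblast and mural markers were lower in nevus hair germ, as these collagens were. Of 6 tested fibroblast markers 3 were far lower in nevus hair germ (*Col1a1*, *Col1a2* and *Mfap5*). The summed level over the list was 13.2 and 13.8 in nevus hair germ, 136 and 105 in nevus bulge, 5.43 and 4.47 in WT hair germ and 17.5 and 15.3 in WT bulge. *Pdgfra*, the defining fibroblast receptor, did not reach the level for testing. Of 4 tested mural and muscle markers 3 were far lower (*Acta2*, *Tagln* and *Myl9*). Their list summed to 19.6 and 21.0 in nevus hair germ and 237 and 391 in nevus bulge, against 25.5 and 27.5 in WT hair germ and 52.6 and 18.9 in WT bulge. The nevus bulge libraries thus stood above the other 6 for both lists. *Acta2* was at 6.26 and 6.17 against 96.5 and 148 while the muscle genes *Myh11*, *Des* and *Rgs5* were not tested. Among 7 dermal papilla markers *Alpl* (0.0675 and 0.089 against 6.62 and 5.93) and *Vcan* (0.27 and 0.245 against 5.08 and 2.79) were far lower and *Rspo3* far higher. *Krt8*, a Merkel cell keratin, was also far lower (0.506 and 0.579 against 14.3 and 12.5), and *Mbp*, a myelin gene that keratinocyte libraries can also hold, far higher (21.6 and 21.8 against 3.01 and 1.08). Of 3 tested Schwann cell markers, *Mbp* among them, the other 2 lay below 0 and none was far lower (median -1.39). The part of such cells in the differences of *Tnc*, *Fndc1*, *Fstl1* and the collagens was not tested.

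Melanocyte and immune markers gave no far higher or far lower member. The melanocyte list (5 tested) summed to 32.2 and 31.6 in nevus hair germ, 21.5 and 29.0 in nevus bulge, 15.8 and 16.1 in WT hair germ and 40.2 and 54.3 in WT bulge. *Dct*, a pigment enzyme, was at 16.8 and 15.8 against 6.77 and 11.5, and the melanosome gene *Mlana* at 5.54 and 4.74 against 2.73 and 3.56. Both rose in nevus hair germ, from 4.84 and 4.14 and from 0.194 and 0.175 in WT (limma, 1.66 and 2.37 on the log2 scale, adjusted p = 0.0029 and 0.00596). They were the 2 of 5 fitted melanocyte markers that rose there, and 1 other fell. The immune list (11 tested) summed to 178 and 176 in nevus hair germ, 98.1 and 194 in nevus bulge, 91.3 and 92.3 in WT hair germ and 760 and 117 in WT bulge, with the first WT bulge library standing apart. *Cd74*, the invariant chain of antigen-presenting cells, was at 66.8 and 65.7 against 19.6 and 60.8.

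No cell cycle gene passed the 8-fold rule between the nevus groups. None of 30 mitosis genes and none of 30 DNA replication genes passed (medians -0.23 and -0.53). The proliferation marker *Mki67* was at 4.94 and 4.93 against 9.85 and 7.91. In the WT pair the medians were 1.38 and 0.97, with most genes higher in WT hair germ than in WT bulge. These medians are under 8-fold, and that of the ribosomal protein genes in the WT pair was 0.75. The mitosis list summed to 549 and 546 in WT hair germ and to 350 and 127 in WT bulge, where the libraries lay far apart. *Cdkn1a*, the inhibitor p21, was at 1497 and 1501 against 258 and 178 and *Cdkn2b*, p15, at 8.9 and 9.59 against 41.2 and 27.2, and none of the 9 inhibitors tested passed. Among 18 clock genes *Nr1d1*, REV-ERBα (84.6 and 83.3 against 8.66 and 4.11), and *Bhlhe40*, DEC1 (448 and 433 against 70.2 and 32.1), were far higher. Of 16 immediate early and heat shock genes, which also rise when tissue is dissociated, *Dusp1* was far higher (2281 and 2036 against 322 and 207) and the median was 1.57. Here *Atf3* was at 2903 and 2894 against 599 and 488 and *Fos* at 2968 and 2983 against 3143 and 3456.

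No member of the interferon, glycolysis, ribosomal or other housekeeping lists passed. The interferon genes varied within the bulge pair, as for *Isg15* (3.79 and 47.3 in bulge and 2.97 and 3.57 in hair germ). The median of the 24 ribosomal protein genes was 0.98 and that of 14 other housekeeping genes 0.34. Rescaling to the ribosomal protein genes would lower every difference by 0.95 on the log2 scale. Medians of the clock, glycolysis, quiescence, BMP, other housekeeping, cell cycle inhibitor, immune and melanocyte lists then turned negative, while those of the epidermis and isthmus lists remained above 0.

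**Figure D4:**
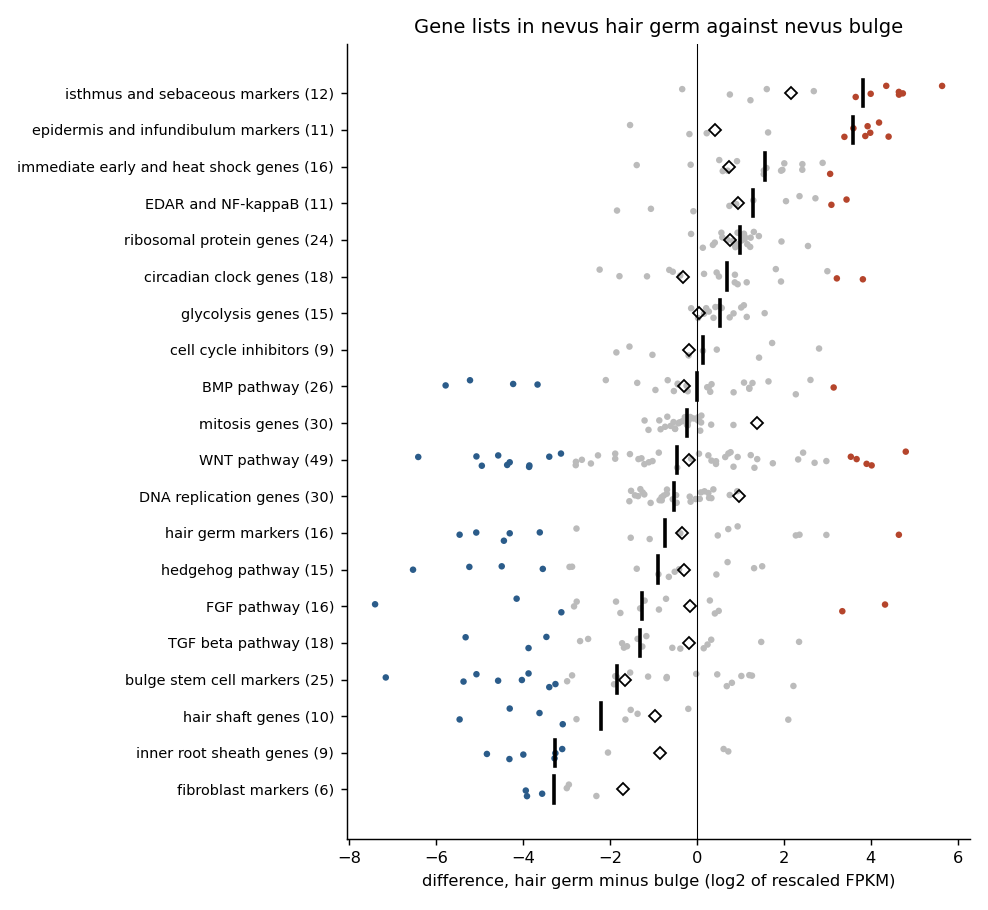
Log2 difference of hair germ minus bulge in nevus libraries for the tested members of 20 gene lists, with a point per gene, a bar at the nevus median and an open diamond at the WT median. Epidermis (median 3.60) and isthmus (3.82) lists lie highest, and fibroblast and inner root sheath lists (-3.28 and -3.26) lowest.

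The WT pair comes from the same tables, so its values stand beside those of the nevus pair. Between WT hair germ and WT bulge 85 genes (0.719%) were far higher and 163 (1.38%) far lower. Of the 318 nevus far higher genes 33 (10.4%) were far higher in WT too, which is 38.8% of the WT list. Of the 466 far lower genes 78 (16.7%) were far lower in WT, 47.9% of the WT list. The median log2 difference of the 318 genes was 3.82 in nevus and 0.97 in WT, and that of the 466 was -4.01 and -1.24, where the nevus values are fixed by the rule. *Cd34*, *Krt6a* and *Krt75* had differences of -7.17, -6.23 and -5.26 in WT, beside -7.16, -4.87 and -5.74 in nevus. *Igfbp2* (400.4 and 361 against 12.1 and 19.1) and *Akr1c19* (114 and 115 against 1 and 0.0878) were also higher in WT hair germ. By contrast *Serpinb2* (136 and 162 against 188 and 95.3) and *Ch25h* (13.9 and 16.1 against 33.5 and 6.17) overlapped between the WT groups.

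Whether the nevus effect differed between the cell types could be tested, because a constant difference between tables cancels when nevus is compared with WT within each table. limma was fitted to log2(rescaled FPKM + 1) of 12420 genes in the 8 P56 libraries, two-sided, with calls at a Benjamini-Hochberg adjusted p under 0.05 and a 2-fold change. The effect of the nevus was higher in hair germ than in bulge for 1301 genes (10.5%) and lower for 1171 (9.43%). With no rescaling the split turned to 977 higher and 1552 lower. Within hair germ 784 genes (6.31%) rose and 581 (4.68%) fell in nevus, and 477 rose and 997 fell with no rescaling. Within bulge 765 (6.16%) rose and 717 (5.77%) fell. These tests use the same nevus libraries as the 8-fold lists and are not independent of them. On this scale a fold change is understated for genes of low FPKM. The fit shares 1 spread per gene among the 4 groups, so a gene's hair germ and bulge effects have the same SE. The SD between libraries was 0.360 and 0.370 for nevus and WT hair germ, against 0.622 and 0.737 for nevus and WT bulge. The p-values can thus be too large for hair germ and too small for bulge.

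Some of the far higher genes rose in nevus hair germ, some fell in nevus bulge, some did both and others, such as *Gm10020*, did neither. Of the 318, 157 rose and 27 fell in nevus hair germ, while none rose and 97 fell in nevus bulge. Over all genes tested 6.31% rose and 4.68% fell in nevus hair germ, and 6.16% rose and 5.77% fell in nevus bulge. The 318 were picked for high values in these nevus hair germ libraries and low values in these nevus bulge libraries. A skew in these directions is therefore built in and is no separate result. *Ch25h* rose in nevus hair germ (3.87 ± 0.73) and fell in nevus bulge (-2.4 ± 0.73), a difference of effects of 6.27 ± 1.04 (limma adjusted p = 0.00545). *Serpinb2* rose from 136 and 162 to 1919.5 and 1977 FPKM in hair germ and fell from 188 and 95.3 to 44.2 and 18.8 in bulge, a difference of effects of 5.88 ± 0.6 (limma adjusted p = 0.000995). *Epgn* rose in hair germ from 21.3 and 25.5 (4.31 on the log2 scale, limma adjusted p = 0.00156). Not all leading genes rose, since *Igfbp2* fell in both (-1.93 and -2.48), as did *Pparg* (-1.27 and -1.72). *Aadac* fell in bulge (-3.43) and its hair germ effect of -0.51 did not pass.

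Many of the far lower genes rose in nevus bulge. Of the 466, 235 rose and 27 fell in nevus bulge, and 8 rose and 100 fell in nevus hair germ. Over all genes tested 6.16% rose and 5.77% fell in nevus bulge, and 6.31% rose and 4.68% fell in nevus hair germ. Here too the genes were picked on the same nevus libraries, so a skew in these directions is built in. In nevus bulge 6 of 7 fibroblast, 3 of 4 mural and 4 of 7 dermal papilla markers rose too and none fell (2 dermal papilla markers without either nevus bulge library), and the part of such cells in the 235 genes was not tested. *Slc7a8* went from 8.03 and 3.37 in WT bulge to 144 and 261 in nevus bulge and from 2.43 and 2.25 to 0.315 and 0.423 in hair germ, a difference of effects of -6.24 ± 0.54 (limma adjusted p = 0.000573). *Fgf5* was at 0.715 and 0.36 in WT bulge and listed at 0 in both WT hair germ libraries, and its difference was -4.38 ± 0.26 (limma adjusted p = 0.000216). *Spp1* likewise rose in nevus bulge (4.46 ± 0.52) and not in hair germ (-0.41 ± 0.52, limma adjusted p = 0.587), with a difference of -4.87 ± 0.73 (adjusted p = 0.00379). *Cd34* fell in both (-1.69 and -2.93), and the effects did not differ at the threshold (1.23 ± 0.58, limma adjusted p = 0.148).

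Other far lower genes fell in nevus hair germ, with no call in nevus bulge. *Lef1* fell from 10 and 9.65 to 0.405 and 0.189 in hair germ and its bulge effect of 0.98 ± 0.38 did not pass, with a difference of effects of -4.04 ± 0.54 (limma adjusted p = 0.00244). *Lgr5* fell from 17.1 and 17.3 to 2.33 and 1.59 in hair germ against 63.3 and 68.6 in WT and 51.3 and 82.3 in nevus bulge (-2.61 ± 0.32, adjusted p = 0.00189). *Lhx2* fell from 29.3 and 27.5 in WT hair germ (-2.92), with a difference of -2.17 ± 0.3 (adjusted p = 0.00285). For *Krt15* and *Nfatc1* the order was the reverse, as both fell in nevus bulge (-1.93 and -2.69). *Krt15* rose in nevus hair germ by 1.05, and its difference was 2.98 ± 0.35 (limma adjusted p = 0.0017), while that of *Nfatc1* was 2.51 ± 0.46 (adjusted p = 0.00758). *Cdh3* rose in both (1.09 and 1.29), with a difference of -0.2 ± 0.41 (adjusted p = 0.732), and *Sox9* passed in neither (0.01 and -0.08).

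The same test gave counts for whole lists, which stand beside the shares over all genes tested. Those were 10.5% with a higher and 9.43% with a lower nevus effect in hair germ than in bulge. In nevus hair germ 6.31% rose and 4.68% fell, and in nevus bulge 6.16% rose and 5.77% fell. Of 30 replication genes 16 and of 30 mitosis genes 10 had a lower nevus effect in hair germ and none a higher one. In nevus bulge 12 and 20 of them rose, and in nevus hair germ none did and 1 of each list fell. These counts changed with single libraries. Without 1 library the lower effects numbered 4 to 19 replication and 0 to 29 mitosis genes. Of the mitosis genes 0 and 1 were called without the first and second nevus hair germ library, 0 without either WT hair germ library, 4 without the first nevus bulge library and 29 without the first WT bulge library. Replication calls numbered 4 and 6 without a nevus hair germ library, 5 without either WT hair germ library and 10 without the first nevus bulge library. Of the rises in nevus bulge 2 mitosis and 4 replication genes passed without the first nevus bulge library, 4 and 5 without the second WT bulge library, and 6 mitosis with 8 or 9 replication genes without any 1 hair germ library. *Mki67* went from 4.87 and 1.99 to 9.85 and 7.91 in bulge and from 5.91 and 6.41 to 4.94 and 4.93 in hair germ (difference -1.5 ± 0.42, limma adjusted p = 0.0358), a call that was lost in 6 of the 8 fits that left out 1 library. Of 11 epidermis markers 8 had a higher nevus effect in hair germ, where 6 rose and 1 fell. The calls of *Ly6a* and *Krtdap* were kept in 2 of 8 fits without 1 library and that of *Krt77* in 4 of 8. The count of 8 was 4 without any 1 of the hair germ libraries and 5 without either nevus bulge library, and the 6 rises were 3 without any 1 hair germ library. Of 9 inner root sheath genes 7 had a lower one, and 7 rose in nevus bulge against 4 in nevus hair germ (2 without any 1 hair germ library). All 9 quiescence genes fell in nevus bulge, the comparison they were chosen on, and 3 fell and 1 rose in nevus hair germ (1 or 2 and 0 without 1 hair germ library). Among 18 clock genes 9 fell and 1 rose in nevus bulge. In nevus hair germ 1 fell and 2 rose, near the shares over all genes. Of 26 bulge markers 8 had a higher and 9 a lower nevus effect in hair germ, and of 16 hair germ markers 3 and 6 (1 and 3 or 4 without 1 hair germ library).

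**Figure D5:**
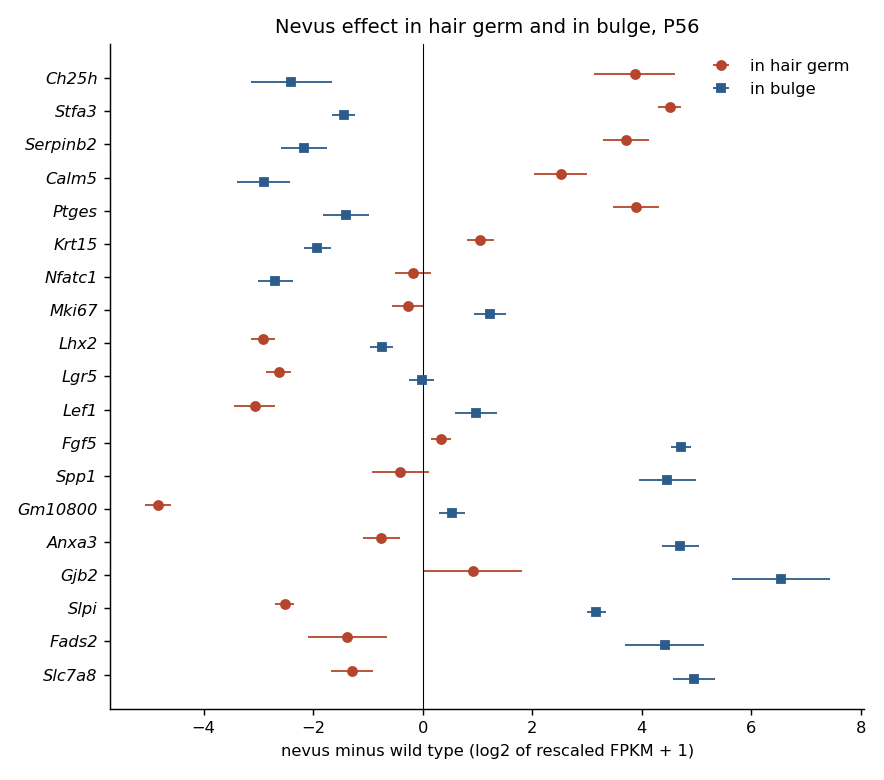
Nevus minus WT log2 effect with limma SE for 19 genes in hair germ (red circles) and bulge (blue squares), from the fit of 8 libraries. *Ch25h* (3.87 and -2.4) and *Slc7a8* (-1.29 and 4.95) have effects of opposite sign.

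Near the 8-fold limit, *Tmem125* (21.7 and 21.4 against 3.53 and 2.04) was just inside and *Rora*, a clock nuclear receptor (83.4 and 82.8 against 13 and 8.29), just outside. On the lower side *Creb3l4* (1.06 and 1.85 against 9.89 and 12.7) was just inside and *Dcn*, the fibroblast proteoglycan decorin (7.79 and 7.52 against 82.6 and 45.2), just outside. Genes listed in 1 table alone could not be compared. The bulge table alone listed 1189 protein-coding genes, 6 of them with a nevus mean of 5 FPKM or more, among them *Gm10260* (880.2 and 1019), *Cmah* (33.3 and 71.0) and *Csn3* (23.5 and 26.5). The hair germ table alone listed 612, none at that level, with the defensin *Defb14* (4.26 and 2.20) the highest.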

How the data were processed

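Sorted cells from mouse dorsal skin were profiled by bulk RNA sequencing of full-length cDNA with paired reads. Per the labels and the study's methods, the authors used STAR 2.4.2 for alignment to GRCm38, and RSEM then gave gene-level FPKM. The deposited FPKM tables, 1 for hair germ and 1 for bulge, state no scaling between libraries. The bulge table lists no value under 0.1 and the hair germ table lists zeros. Neither holds counts, so depth is unknown, no interval from counts can be given, and whether the libraries of a group are 1 preparation sequenced more than once could not be tested. Over genes of every type listed, FPKM summed to 701329 to 839237 per library, and 11255 to 12731 genes reached 1 FPKM.

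Groups came from the labels. The tables were joined on the Ensembl identifier (15575 protein-coding genes in the hair germ table, 16152 in the bulge table). Values under 0.1 were set to 0.1, genes with 1 FPKM in at least 2 of the 4 nevus libraries were kept, and libraries were divided by median ratios over 11549 genes (0.889 and 0.899 for nevus hair germ, 1.21 and 1.04 for nevus bulge). Printed levels are rescaled but not floored, so a bulge gene at the floor is printed just under or over 0.1. Gene symbols stored as dates (23 in each table) were restored. Differences between cell types are descriptions, with SE from the libraries. Nevus effects and their difference were tested with limma 3.58.1 in R 4.3.3 on log2(FPKM + 1) with a pseudocount of 1, 1 mean for each of 4 groups, a variance trend and 4 residual degrees of freedom. The study's own test needs counts. p-values measure the spread between these libraries. The rule and fit were tested on simulated data.

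Named genes are the 12 largest differences each way whose higher group averaged at least 5 FPKM with no lower library at the floor, the 6 highest each way with the lower group at the floor, up to 4 members per list, a set named whatever its values, and the 6 highest and 6 lowest interactions. Of the genes these rules pick, 2 are not reported here. Further list members, the promoter motifs and genes in 1 table were chosen after their values were seen. The members, lists and tests were chosen with earlier results of these data known. Python 3.11.15, numpy 2.4.6 and pandas 2.3.3 were used, and promoter windows are from RefSeq. Alternatives were the fold limit, floor, rescaling, filter, pseudocount, replicate block and each library left out.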

Additional observations from a re-analysis of the deposited data

Results flagged for a closer look

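The test of the difference between the nevus effects in hair germ and bulge (limma, adjusted p under 0.05 and 2-fold) singled out 1301 genes with a higher effect in hair germ and 1171 with a lower one. The values below are log2 differences of the effects, hair germ minus bulge. No explanation of them was tested.

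Higher in hair germ were *Stfa3*, a cysteine protease inhibitor of the stefin family (5.95), *Calm5*, a calmodulin-like gene of differentiating keratinocytes (5.43), and *Ptges*, prostaglandin E synthase (5.30). *Ptges* was at 111 and 116 in nevus and 7.6 and 5.84 in WT hair germ, and at 7.19 and 3.47 and 23.2 and 9.52 in bulge. *Stfa3* belongs to a family of near copies and its level is uncertain. *Ch25h* (6.27) and *Serpinb2* (5.88) had the values given with the leading genes, and the bulge keratin *Krt15* (2.98) and the quiescence factor *Nfatc1* (2.51) were on the same side, with a fall of both in nevus bulge and a rise of *Krt15* in nevus hair germ.

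Lower in hair germ were *Slc7a8* (-6.24), the fatty acid desaturase *Fads2* (-5.79), the secreted protease inhibitor *Slpi* (-5.68), the gap junction protein connexin 26, *Gjb2* (-5.62), annexin A3, *Anxa3* (-5.46), and *Gm10800* (-5.36). *Slpi* was at 9.99 and 10.2 in nevus and 65.1 and 59.7 in WT hair germ, and at 29.6 and 21.1 and 1.69 and 2.11 in bulge, so the cell types moved in opposite directions. *Gjb2* was at 12.6 and 12.7 and 6.19 and 6.27 in hair germ and at 564 and 1011 in nevus bulge, where the WT bulge libraries were far apart (23.9 and 1.63). Its call was kept in 4 of the 8 fits that left out 1 library. *Gm10800* is an unnamed gene model with 36.9 and 32.6 in WT hair germ and under 1 FPKM in both nevus groups, and its level is uncertain. Among genes of the follicle, *Spp1* (-4.87), *Fgf5* (-4.38), *Lef1* (-4.04), *Lgr5* (-2.61), *Lhx2* (-2.17) and *Mki67* (-1.50) were lower too, and the call of *Mki67* was kept in 2 of 8 such fits.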

How the results depend on the processing

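The main limits are 2 libraries in each group, tables made separately, unknown depth and a floor in the bulge table alone. The count of far higher genes (318) and far lower genes (466) was 726 and 855 at 4-fold, 117 and 232 at 16-fold, 153 and 159 on log2(FPKM + 1) in place of a floor, 156 and 110 where all 4 libraries had to reach 1 FPKM, and 126 and 826 after rescaling to ribosomal protein genes. With a floor of 0.5 FPKM the far lower count was 290. The share of far calls that were higher was 40.6%, and 30.3% with no rescaling and 13.2% with ribosomal rescaling. Relative to median ratios, all differences shifted by -0.33 with no rescaling, -0.21 with the upper quartile and -0.95 with ribosomal protein genes.

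Leaving out 1 library gave 125 to 481 far lower genes. The low end came without the second nevus bulge library and the first gave 161, because the filter then keeps only genes that a hair germ library also reaches. On the genes kept by all 4 libraries, an alternative chosen after seeing the data, these counts were 463 and 503. Far higher genes numbered 212 to 379 (218 and 212 without the first and second nevus hair germ library), and 305 to 395 on the genes kept by all 4. Without 1 library, with the lone one assumed to vary like the other groups, the test of the difference of effects called 1586 to 2704 genes (2472 with all). It called 1648 and 1586 without either nevus hair germ library. Changes in hair germ numbered 745 to 1462 (1365 with all), with 771 and 764 without a nevus and 745 and 792 without a WT hair germ library. Without 1 library some genes, such as *Fgf5*, did not pass the filter in every fit and have 6 fits in place of 8.

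Called higher in hair germ by the difference of effects were 52.6% of calls, and 38.6% with no rescaling. Within hair germ this share was 57.4%, 32.4% (477 and 997 genes) with no rescaling and 47.4% (907 and 1006) with log2(FPKM + 0.1). Replicate numbers did not pair the samples (correlations of deviations -0.018 to 0.176), and a fit with the replicate block called 2539 genes for the difference of effects, 1387 in hair germ and 1512 in bulge.

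Of the differences of effects of single named genes, 1646 values under an alternative kept their call and direction, 36 passed only there, 181 no longer passed and 19 changed sign. Of the latter *Ltbp2* alone had been a call (1.496). With no rescaling *Acoxl* was at -0.008, *Aldoa* at -0.118, *B2m* at -0.032 and *Sox9* at -0.139. With log2(FPKM + 0.1) *Ctgf* was at -0.207, *Ltbp2* at -0.191 and *Lama4* at 0.583. Without 1 library *Acoxl* ranged from -0.688 to 0.901, *Pparg* from -0.039 to 0.939, *Lama4* from -0.748 to 0.016, *Btg2* from -0.493 to 0.47, *Aldoa* from -0.044 to 0.28, *B2m* from -0.242 to 0.65, *H2-Ab1* from -0.462 to 2.465, *Cdh3* from -0.715 to 0.305 and *Sox9* from -0.268 to 0.458. No called nevus difference between cell types changed sign. Over all named genes compared, called or not, 707 values lay within and 396 beyond the spread of libraries. A change of sign was recorded for called genes only. The cause of these shifts was not tested.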
